A study of Mus musculus with 6 samples.

Results

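The genes of the DNA replication machinery were followed in mouse germinal vesicle (GV) oocytes, the stage at which a fully grown oocyte rests in meiotic prophase with an intact nucleus. Members were taken by gene symbol: the Mcm, Orc, Gins, Rfc, Rpa, Pola, Pold, Pole and Prim families, and Cdc6, Cdc45, Cdc7, Cdt1, Gmnn, Pcna, Fen1 and Lig1. This rule found 47 genes among the 17577 that each expression table listed, and it used no measured value. All 47 were listed above 0 in every library, and 46 of them were among the 10560 genes that averaged 1 FPKM or more over the 6 libraries and were tested (FPKM, fragments per kilobase of transcript, scaled to the fragments of the library).

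Oocytes came from 12-week-old C57BL/6 J mice whose ovaries had been stimulated with pregnant mare serum gonadotropin. The 3 Bnc1tr/tr libraries were from mice homozygous for a small deletion in Bnc1 that shifts its reading frame and truncates basonuclin 1, a zinc finger transcription factor, in all tissues. The 3 WT libraries carried the intact gene, and the methods state that littermates were compared. Each cDNA was made from a single oocyte with a modified Smart-seq2 procedure primed on poly(A) tails. The libraries of a group are described as biological replicates run in duplicate. How the duplicates entered the tables and whether the oocytes came from separate mice were not given, so the p values below measure only the spread between these libraries.

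Replication begins at origins, where the origin recognition complex and loading factors place a ring of MCM proteins on DNA. Cdc45 and the GINS complex turn that ring into the moving helicase, polymerase alpha-primase lays down RNA-DNA primers, and polymerases delta and epsilon, held on DNA by the PCNA clamp, extend them. The GV oocyte itself does not replicate DNA. It stores transcripts and proteins, and the first S phases of the embryo after fertilization draw on this maternal supply.

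Library totals were 657550 to 724550 FPKM, and 13.3 to 21.2 M fragments (M, mega) per library were estimated from the steps between low values, since the tables hold no read counts. Replication genes took 0.583% to 0.657% of the summed FPKM. Bnc1 itself was at 9.04, 6.51 and 5.83 FPKM in Bnc1tr/tr replicates 1 to 3 and at 13.17, 12.54 and 16.23 FPKM in WT (log2 fold change -0.89 ± 0.20 SE, adjusted p value = 0.009). The 14 oocyte markers summed to 9033.94 to 10034.7 FPKM in Bnc1tr/tr and 7385.72 to 12104.28 FPKM in WT. Single markers moved in both directions. Bmp15, Kit, Dazl and Mos were higher without overlap and Zp2, Zp3 and Nlrp5 lower. These were 7 of the 14, and groups did not overlap for 46.8% of all tested genes. Transcripts that serve as markers of other ovarian cells differed between libraries. The 10 immune markers summed to 53.2 and 79.28 FPKM in Bnc1tr/tr replicates 1 and 2 but to at most 3.0 FPKM in the other 4 libraries. Replicates 1 and 2 are called the libraries with immune transcripts below. Bnc1tr/tr replicate 3 also held C1qa and Adgre1 (0.61 and 0.13 FPKM), which were at 0 in every WT library. The 16 listed granulosa and cumulus markers summed to 51.38 to 67.37 FPKM in Bnc1tr/tr and 23.64 to 43.04 FPKM in WT. Cyp19a1 made up most of that sum (27.49 to 44.41 and 17.41 to 28.98 FPKM, with overlap). Fshr and Cyp11a1 were higher without overlap (4.54 to 5.83 against 0 to 0.74 FPKM, and 5.29 to 6.08 against 0.6 to 2.17 FPKM). So were Kitl and Nr5a2 (means 2.46 and 5.45 against 1.14 and 3.72 FPKM). The defining markers Foxl2 and Amhr2 were near 0 in both groups (0 in each Bnc1tr/tr library, means of 0.01 and 0.07 FPKM in WT). Inha, Gja1, Hsd17b1 and Fst had the higher mean in WT (3.42, 1.32, 0.787 and 0.257 FPKM against 0.693, 0.503, 0.197 and 0.0533). Their ranges overlapped, and WT replicate 3 was at 0.04, 0.06, 0 and 0.04 FPKM. The 6 listed theca and stroma markers summed to 5.91 to 9.76 FPKM in Bnc1tr/tr and 1.4 to 2.09 FPKM in WT. Dcn made up most of that sum (means 6.11 and 1.62 FPKM, without overlap). Lum and Pdgfra were also higher without overlap (means 1.06 and 0.503 against 0 and 0.06 FPKM). Col1a1, Acta2 and Cyp17a1 were near 0 in both groups, with overlap. The 9 listed epithelial and endothelial markers summed to 15.08 to 39.11 FPKM in Bnc1tr/tr and 10.76 to 14.28 FPKM in WT. Krt8, Krt18, Krt7 and Kdr were higher without overlap (means 11.7, 3.64, 0.557 and 0.903 against 0.47, 0, 0.14 and 0.0967 FPKM). Pecam1 was lower without overlap (4.01 against 9.11 FPKM). Whether these transcripts came from such cells or from the oocyte itself was not tested, nor was their part in the results below. A difference in the number of such cells cannot be told apart from a difference in RNA per cell.

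GV oocytes held most of the replication machinery as abundant transcripts. The median WT mean was 31 FPKM over the 47 genes, against 8.62 FPKM over all tested genes, of which 73.4% lay below the replication median. The WT mean was at least 100 FPKM for 11 genes, between 10 and 100 FPKM for 28 and under 10 FPKM for 8. Orc5, a subunit of the origin recognition complex, stood at the top with 819.43, 748.17 and 768.69 FPKM in WT and 585.56, 706.44 and 722.46 FPKM in Bnc1tr/tr. It was followed in WT by the small accessory subunit of polymerase epsilon, Pole4 (458 ± 54.8 FPKM, SD, n = 3), by Rpa3, the smallest subunit of the single-strand binding protein (430 ± 113 FPKM), and by Gmnn, which encodes geminin, the inhibitor of the loading factor Cdt1 (307 ± 45.0 FPKM). Library ranges separated Orc5 from Pole4 and Gmnn from the next gene, Orc6. They overlapped for 41 of the 46 neighbouring pairs in the WT order, so most of that order is not resolved, and for 40 of 46 in the Bnc1tr/tr order.

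**Figure D1:**
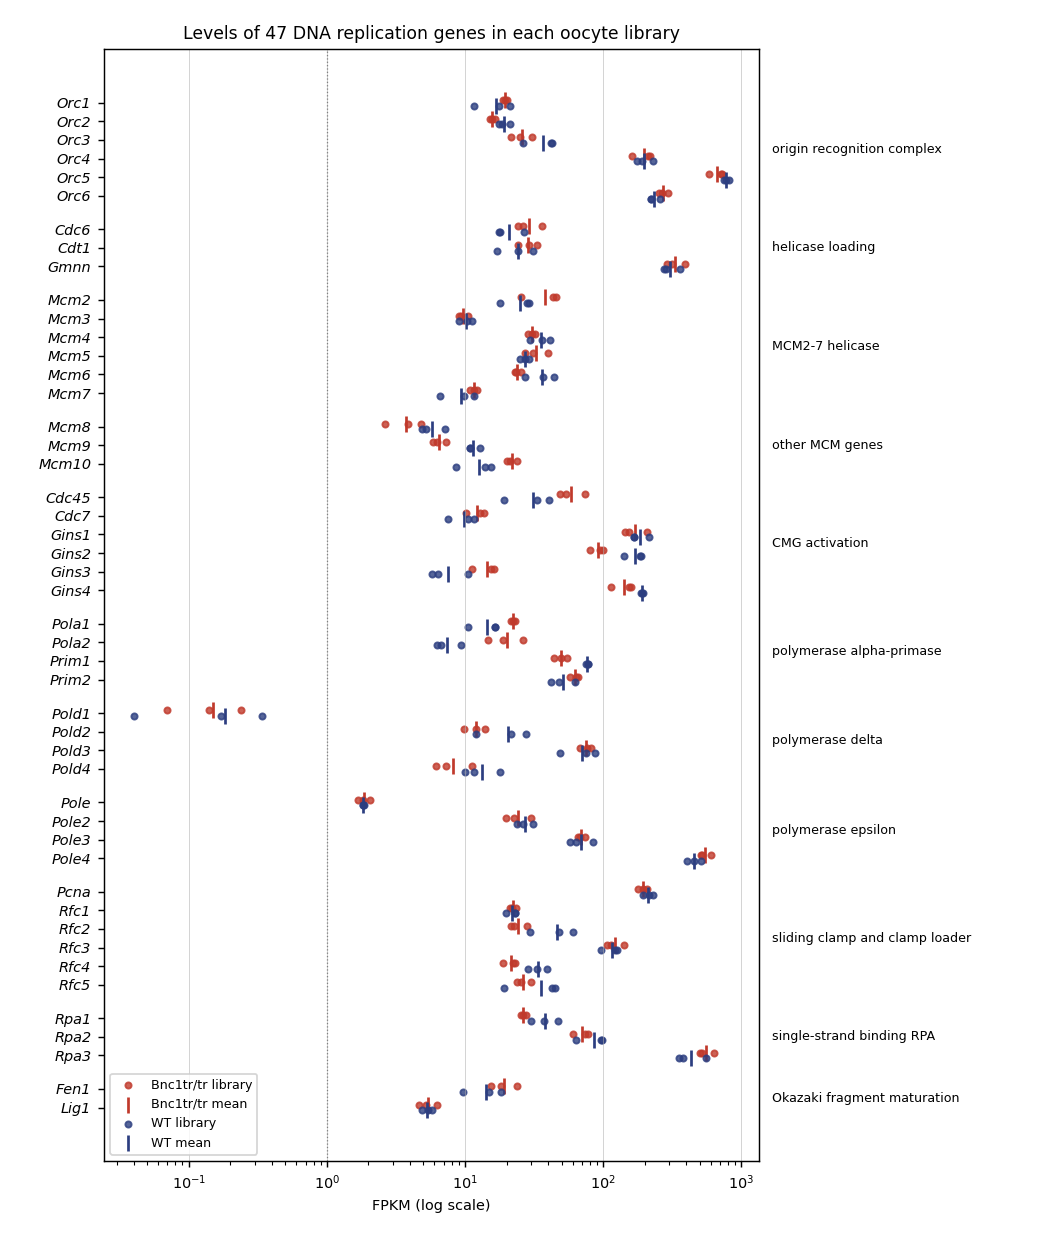
FPKM of the 47 replication genes on a log axis, grouped by complex, with 1 point per library (red Bnc1tr/tr, blue WT) and a bar for each group mean of 3 libraries. The dotted line marks 1 FPKM, the minimum mean for testing. Orc5 lies at the right edge, and Pold1 is the gene left of the dotted line.

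The catalytic subunits of polymerases delta and epsilon were the least abundant members in both groups. Pold1, the catalytic subunit of polymerase delta, was listed at 0.14, 0.24 and 0.07 FPKM in Bnc1tr/tr and at 0.17, 0.34 and 0.04 FPKM in WT. At the estimated depth these values correspond to 3 to 18 fragments per library, close to the 0.0436 to 0.0697 FPKM that 3 fragments represent, so a difference between genotypes was not detectable. Pole, the catalytic subunit of polymerase epsilon, was at 2.06, 1.84 and 1.69 FPKM in Bnc1tr/tr and 1.87, 1.84 and 1.81 FPKM in WT, or about 190 to 267 fragments. Partner subunits were far higher. Pold3 exceeded Pold1 by 221 to 1220-fold within the WT libraries (with the few Pold1 fragments given above), and Pole4 exceeded Pole by 224 to 275-fold. By contrast the 6 subunits of the MCM2-7 ring lay within 3.84-fold of each other in WT and 3.93-fold in Bnc1tr/tr.

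Longer transcripts tended to have lower FPKM. Across the 47 genes Spearman's rho between the WT mean and the longest coding transcript was -0.47 (-0.44 for the Bnc1tr/tr mean), and across the 10426 tested genes with a length it was -0.26. These are descriptions over genes of the same libraries, and FPKM already divides by length.

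**Figure D2:**
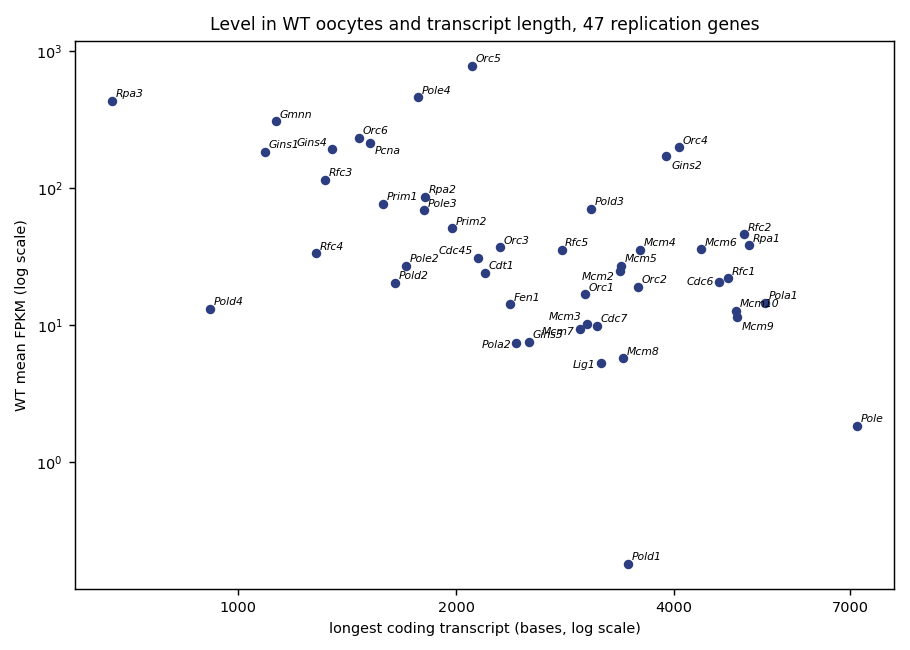
WT mean FPKM against the length of the longest coding transcript in bases, both on log axes, with 1 point per replication gene (n = 47). Points fall from the upper left (Rpa3, Gmnn) to the lower right (Pole), with Orc4, Orc5 and Gins2 above the trend and Pold1 and Pold4 below it.

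Many replication genes share a promoter word bound by E2F factors, the regulators that switch on S phase genes in dividing cells. RefSeq promoters (GRCm38.p6, 250 bases before to 50 after the annotated start) were found by gene ID for 39 of the 47 genes. The entries missing were those of Gins1, Gins2, Gins4, Gmnn, Mcm4, Pole, Prim2 and Rfc2. The letters TTTNNCGC, read on both strands, occurred in 17 of the 39 promoters (43.6%), against 9.7% of the promoters of 8546 tested genes and 5.9% of all 27025 genes in the table. Its stricter forms TTTGGCGC and TTTCCCGC, which are contained in TTTNNCGC, occurred in 17.9% and 23.1% of the replication promoters against 1.1% and 2.3% of the tested ones. The letters CCAAT were in 61.5% against 44.4%, GGGCGG in 76.9% against 64.6%, TATAAA in 7.7% against 9.8%, and TTTGAA in 15.4% against 15.5%.

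The 17 genes with TTTNNCGC were Orc1 and Orc3 of the origin recognition complex, Cdc6 and Cdt1 of helicase loading, Mcm3, Mcm5, Mcm6, Mcm7 and Mcm8, the GINS subunit Gins3, Pola1, the delta subunits Pold1 and Pold3, the epsilon subunits Pole2 and Pole4, the clamp loader subunit Rfc3 and the ligase Lig1. None of the 3 RPA genes held it. WT means of these genes ran from 0.183 FPKM for Pold1 to 458 FPKM for Pole4, so promoters with the same letters belonged to genes at both ends of the order. Stretches around the matches are shown for the 4 MCM ring genes that hold them, for the catalytic subunit of polymerase alpha, which rose, and for that of polymerase delta, which was nearly absent. Capitals mark TTTNNCGC or its reverse complement, and neighbouring matches on opposite strands run into each other in Mcm5 and Mcm6.
Mcm3 (chr1:20820263-20820318, minus strand): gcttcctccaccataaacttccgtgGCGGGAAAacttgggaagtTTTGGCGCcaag
Mcm5 (chr8:75109331-75109392, plus strand): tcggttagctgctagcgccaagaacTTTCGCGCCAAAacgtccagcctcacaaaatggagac
Mcm6 (chr1:128359720-128359840, minus strand): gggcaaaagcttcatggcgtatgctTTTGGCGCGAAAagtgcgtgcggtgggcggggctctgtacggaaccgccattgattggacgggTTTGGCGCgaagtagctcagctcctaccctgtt
Mcm7 (chr5:138171835-138172073, minus strand): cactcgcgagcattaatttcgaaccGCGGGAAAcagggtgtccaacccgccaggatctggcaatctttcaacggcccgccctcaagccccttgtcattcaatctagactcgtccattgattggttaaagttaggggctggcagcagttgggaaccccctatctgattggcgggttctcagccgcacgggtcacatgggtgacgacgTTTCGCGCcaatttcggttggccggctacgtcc
Pola1 (chrX:93632261-93632318, minus strand): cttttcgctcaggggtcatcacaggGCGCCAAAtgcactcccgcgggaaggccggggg
Pold1 (chr7:44548766-44548801, minus strand): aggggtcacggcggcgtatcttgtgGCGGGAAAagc
Sequences are from RefSeq, build GRCm38.p6. A match describes these letters only and was not tested as a binding site.

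To compare the genotypes, limma was fitted on log2(FPKM + 1) over all tested genes, and a gene was called changed where its adjusted p value was under 0.05 and its log2 fold change exceeded 0.5 in either direction. The replication machinery did not move as one. Of its 46 tested genes 10 changed (21.7%), 5 upward (Pola2, Cdc45, Gins3, Mcm10, Pola1) and 5 downward (Gins2, Rfc2, Mcm9, Prim1, Rfc4), against 31.8% of all tested genes (24.1% higher and 7.68% lower). Groups did not overlap for 16 of the 46, with Bnc1tr/tr higher in 5 and lower in 11, against 46.8% of all tested genes (32.7% and 14.1%). The median log2 fold change was 0.01 for the replication genes and 0.15 for all tested genes, so relative to the typical gene the replication median was -0.14, with 17 members above the all-gene median and 29 below it. Fold changes are on the log2(FPKM + 1) scale, which understates those of low genes. For the 10 called members the value relative to the 0.15 of all genes follows, and other fold changes are given without it. The balance of calls depended on scaling: it was 1 higher and 13 lower with upper-quartile scaling, 4 and 12 with median-ratio scaling and 2 and 12 with quantile normalization, while over all tested genes the share of calls that were higher went from 75.8% to 50.8%, 59.3% and 48.0%. Each of the 10 genes kept its direction under every alternative. Leaving out both Bnc1tr/tr replicates 1 and 2, the libraries with immune transcripts, leaves 1 Bnc1tr/tr library whose spread is taken from WT. The median log2 fold change was then -0.01 for the replication genes and 0.1 for all tested genes. With 1 library in a group, the calls above cannot be checked without replicates 1 and 2.

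**Figure D3:**
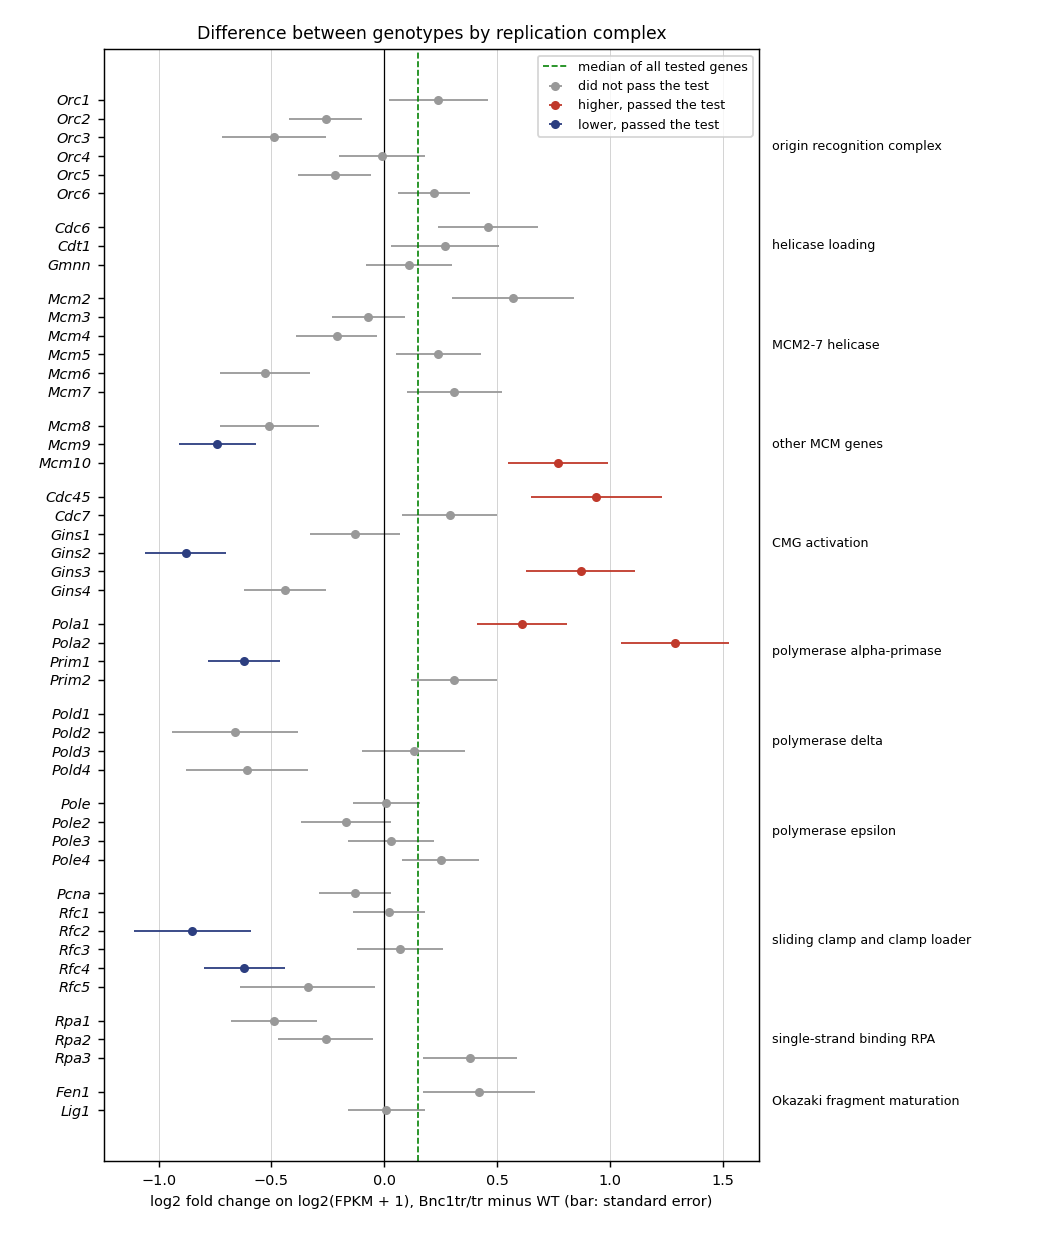
Log2 fold change (Bnc1tr/tr minus WT, on log2(FPKM + 1)) of the 46 tested replication genes by complex, with standard errors. Red and blue points passed the test (5 higher, 5 lower), grey points did not, and the dashed line is the median of all tested genes at 0.15. Upper-quartile scaling turned the 5 and 5 into 1 higher and 13 lower, without a change of direction for the coloured points.

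Polymerase alpha-primase, the enzyme that starts every new strand, showed changes in both directions among its 4 subunits (2 called higher and 1 lower). Over all tested genes 24.1% were called higher and 7.68% lower. Pola2, the regulatory B subunit (NCBI Gene 18969, GRCm38.p6 chr19:5940543-5964238), was at 26.23, 18.91 and 14.75 FPKM in Bnc1tr/tr and at 9.3, 6.26 and 6.74 FPKM in WT, so that every Bnc1tr/tr library lay above every WT library. Its means were 20 ± 5.81 and 7.43 ± 1.63 FPKM (SD, n = 3), and its log2 fold change of 1.29 ± 0.24 SE (1.15 relative to all genes, adjusted p value = 0.0034) was the largest in the machinery. Pola1, the catalytic subunit (chrX:93304766-93632387), was at 21.47, 22.13 and 22.96 FPKM in Bnc1tr/tr and at 16.55, 16.44 and 10.47 FPKM in WT. It rose by a log2 fold change of 0.61 ± 0.20 SE (0.46 relative, adjusted p value = 0.047), the call nearest to the threshold.

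Of the primase subunits only Prim1 was called, in the opposite direction to Pola1 and Pola2. Prim1, which synthesizes the RNA primer (chr10:128015215-128030030), fell from 74.55, 77.82 and 77.5 FPKM in WT to 44.13, 49.85 and 54.68 FPKM in Bnc1tr/tr (log2 fold change -0.62 ± 0.16 SE, -0.77 relative, adjusted p value = 0.017). Prim2, the large primase subunit, was at 62.4 ± 4.35 FPKM in Bnc1tr/tr and 50.9 ± 10.5 FPKM in WT. It did not pass the test (log2 fold change 0.31 ± 0.19 SE, adjusted p value = 0.25), and its direction was that of Pola1 and Pola2. The ratio of Pola2 to Prim1 was 0.594, 0.379 and 0.27 in Bnc1tr/tr and 0.125, 0.0804 and 0.087 in WT. A single factor per library cannot alter this ratio, whereas quantile normalization can. The pair was set side by side because its members differ in opposite directions, so the ratio describes the imbalance and adds no support. Pola2 passed whichever single library was left out, Prim1 failed without Bnc1tr/tr replicate 1 (adjusted p value = 0.062) or WT replicate 2 (0.069), and Pola1 passed without WT replicate 1 but failed without each other library (0.068 to 0.12) and under all 3 scalings (0.10 to 0.17), at a pseudocount of 0.1 (0.069) and with no filter (0.068).

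The factors that convert the loaded MCM ring into an active helicase also split, with 2 of 6 called higher and 1 lower. The shares over all tested genes were 24.1% and 7.68%. Cdc45, which joins the ring as origins fire (chr16:18780447-18811972), was at 73.83, 48.69 and 53.73 FPKM in Bnc1tr/tr and at 40.77, 33.35 and 18.98 FPKM in WT. It rose by 0.94 ± 0.29 SE on the log2 scale (0.80 relative, adjusted p value = 0.034). Gins3 (chr8:95633559-95645059), a subunit of the GINS tetramer, rose from 10.48, 6.38 and 5.75 FPKM in WT to 16.23, 11.25 and 15.47 FPKM in Bnc1tr/tr (log2 fold change 0.87 ± 0.24 SE, 0.72 relative, adjusted p value = 0.023). Gins2 (chr8:120581266-120589075), its partner in the tetramer, went the other way. It fell from 183.27, 187.96 and 140.55 FPKM to 80.79, 99.58 and 94.69 FPKM (log2 fold change -0.88 ± 0.18 SE, -1.03 relative, adjusted p value = 0.0064). The remaining GINS subunits did not pass the test: Gins4 was at 142 ± 23.7 FPKM in Bnc1tr/tr and 191 ± 3.71 FPKM in WT without overlap (adjusted p value = 0.091), and Gins1 at 169 ± 34.7 and 183 ± 28.5 FPKM (0.68). Gins4 passed under upper-quartile (0.021) and median-ratio scaling (0.034).

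GINS proteins assemble in equal numbers, whereas their transcripts were far from equal. Gins2 exceeded Gins3 by 17.5, 29.5 and 24.4-fold in the WT libraries and by 4.98, 8.85 and 6.12-fold in the Bnc1tr/tr libraries, a ratio of genes called in opposite directions that restates those calls. Gins2 is an uncertain value, because 67.3% of its exonic bases lie antisense to Gse1 and the protocol was not stated to keep strand. Gse1 was at 12.24, 11.87 and 9.28 FPKM in Bnc1tr/tr and 8.89, 7.48 and 11.48 FPKM in WT (adjusted p value = 0.38), well below Gins2. Cdc7, the kinase that triggers origin firing, was at 12.2 ± 1.91 FPKM in Bnc1tr/tr and 9.88 ± 2.16 FPKM in WT (adjusted p value = 0.32). Gins2 passed whichever single library was left out. Cdc45 passed only without WT replicate 1 among the single-library omissions (0.054 to 0.12 otherwise) and failed at a pseudocount of 0.1 (0.061), with no filter on low values (0.088) and under upper-quartile scaling (0.062). Gins3 failed without Bnc1tr/tr replicate 1 or 3 or WT replicate 2 or 3 (0.053 to 0.086), with no filter (0.057) and under upper-quartile (0.056) and quantile scaling (0.065).

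**Figure D4:**
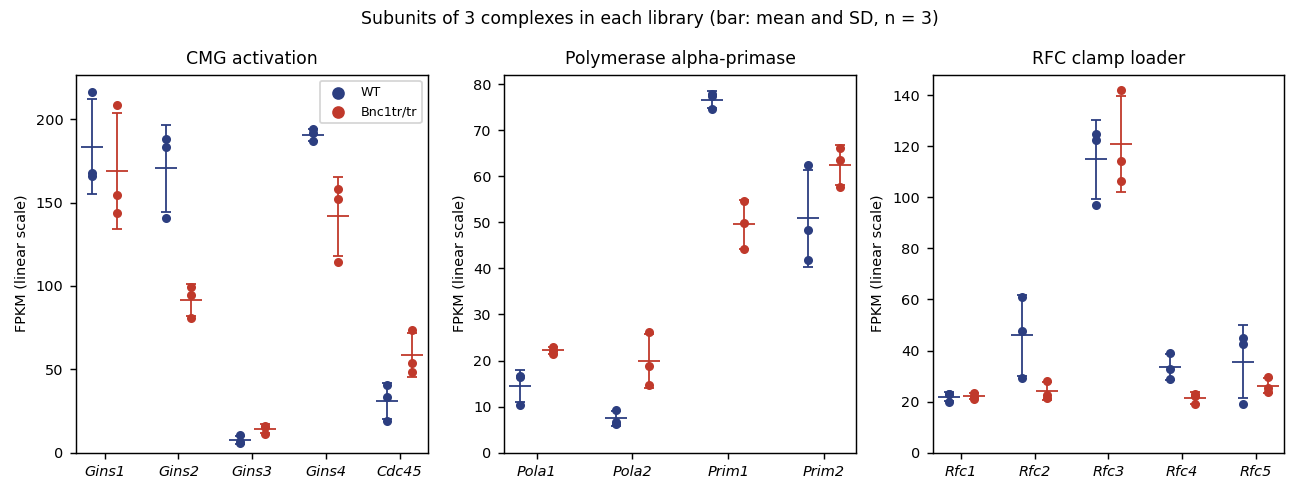
FPKM on linear axes from 0 of the GINS subunits and Cdc45, of polymerase alpha-primase and of the RFC clamp loader, with 1 point per library and the mean and SD (n = 3, blue WT, red Bnc1tr/tr). Gins2, Prim1, Rfc2 and Rfc4 lie lower and Gins3, Cdc45, Pola1 and Pola2 higher in every Bnc1tr/tr library than in any WT library.

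Among the MCM genes 0 of the 6 in the replicative ring and 2 of the other 3 were called, against 31.8% of all tested genes. So few genes cannot separate these shares. Mcm10, which helps to activate the helicase and to recruit polymerase alpha (chr2:4990724-5012791), was at 23.63, 21.22 and 20.27 FPKM in Bnc1tr/tr and 15.44, 14.03 and 8.57 FPKM in WT. It rose by 0.77 ± 0.22 SE on the log2 scale (0.62 relative, adjusted p value = 0.029). Mcm9, a helicase of homologous recombination repair with a known role in germ cell maintenance (chr10:53536315-53630006), fell from 10.88, 10.88 and 12.74 FPKM in WT to 7.33, 5.86 and 6.23 FPKM (log2 fold change -0.74 ± 0.17 SE, -0.89 relative, adjusted p value = 0.0089). Its partner Mcm8 was at 2.64, 3.86 and 4.78 FPKM in Bnc1tr/tr and at 7.13, 4.84 and 5.2 FPKM in WT (log2 fold change -0.51 ± 0.22 SE, adjusted p value = 0.11). Both partners were lower in every Bnc1tr/tr library than in any WT library, and Mcm8 passed under each of the 3 scalings (0.019 to 0.047). Mcm9 shares 19.2% of its exonic bases with the antisense gene Asf1a, which was at 315 ± 93.3 FPKM in Bnc1tr/tr and 499 ± 153 FPKM in WT (adjusted p value = 0.11), so its level is uncertain. Mcm9 passed whichever single library was left out, and Mcm10 failed without each of the Bnc1tr/tr libraries and without WT replicate 2 (0.051 to 0.091), with no filter on low values (0.058) and under upper-quartile (0.072) and quantile scaling (0.059).

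Within the MCM2-7 ring the log2 fold changes ran from -0.53 for Mcm6 to 0.57 for Mcm2. In limma's test 0 of 6 subunits passed, against 31.8% of all tested genes. At an unadjusted p under 0.05 there was 1, a threshold at which all tested genes were not counted. Mcm6 was at 25.52, 22.84 and 23.53 FPKM in Bnc1tr/tr and 43.96, 36.46 and 26.99 FPKM in WT, without overlap (adjusted p value = 0.074). It passed under each of the 3 scalings (0.0084 to 0.015) and without WT replicate 3 (0.014), its lowest WT library. Mcm2 was at 45.86, 25.33 and 42.99 FPKM in Bnc1tr/tr and 28.97, 27.9 and 17.97 FPKM in WT (adjusted p value = 0.14), and it passed without Bnc1tr/tr replicate 2 (0.045). The ratio of Mcm6 to Mcm2 within a library was 0.556, 0.902 and 0.547 in Bnc1tr/tr and 1.52, 1.31 and 1.5 in WT. Mcm6 was thus the higher of the pair in each WT library and Mcm2 in each Bnc1tr/tr library. The pair stands at the ends of the ring's fold changes and neither gene was called, so the ratio adds no support for a difference. Mcm3, Mcm4, Mcm5 and Mcm7 had group means between 9.33 and 35.6 FPKM and adjusted p values of 0.30 to 0.78. Of these, Mcm7 shares 33.4% of its 31-base words with other genes and is uncertain.

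Origin recognition and helicase loading had 0 called members among 6 and 3 genes in limma, against 31.8% of all tested genes. At an unadjusted p under 0.05 there were 0 as well, a threshold at which all tested genes were not counted. Orc5 was lower in each Bnc1tr/tr library than in any WT library (log2 fold change -0.22 ± 0.16 SE, adjusted p value = 0.34), as was Orc2 (-0.26 ± 0.16 SE, 0.24), which passed under upper-quartile (0.031) and quantile scaling (0.032). The exons of Orc2 overlap antisense Nif3l1 over 29.8% of their bases, and Nif3l1 itself fell (log2 fold change -1.32, adjusted p value = 0.00069), so the value of Orc2 is uncertain. Orc3 was at 25.7 ± 4.67 FPKM in Bnc1tr/tr and 36.9 ± 9.3 FPKM in WT (adjusted p value = 0.14) and passed without WT replicate 3 (0.023) and under each scaling (0.024 to 0.043). Orc1, Orc4 and Orc6 had adjusted p values of 0.34 to 0.98. The complex was strongly uneven, with Orc5 46.4-fold above Orc1 in WT and 42.8-fold above Orc2 in Bnc1tr/tr.

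Geminin transcripts exceeded those of Cdt1, the loading factor that geminin blocks, in all 6 libraries. Gmnn over Cdt1 was 8.82, 10.9 and 16.1 in Bnc1tr/tr and 9.14, 11.4 and 21.0 in WT, and these ranges overlapped. Cdt1 was at 28.7 ± 4.43 FPKM in Bnc1tr/tr and 24.2 ± 7.09 FPKM in WT (adjusted p value = 0.43). Cdc6, the ATPase that loads the ring with Cdt1, was at 28.9 ± 6.44 and 20.8 ± 5.05 FPKM (0.15).

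The clamp loader RFC, which opens the PCNA ring and closes it around DNA, had 2 of its 5 subunits lower. Of all tested genes 7.68% were called lower. Rfc2 (chr5:134582690-134598328) fell from 60.88, 47.57 and 29.33 FPKM in WT to 21.6, 28.05 and 22.57 FPKM in Bnc1tr/tr (log2 fold change -0.85 ± 0.26 SE, -1.0 relative, adjusted p value = 0.035). Rfc4 (chr16:23113948-23127730) fell from 38.9, 32.98 and 28.71 FPKM to 22.29, 23.14 and 18.93 FPKM (log2 fold change -0.62 ± 0.18 SE, -0.76 relative, adjusted p value = 0.028). In both genes WT replicate 3 was the WT library closest to the Bnc1tr/tr range. Rfc1, the large subunit, was at 22.1 ± 1.1 and 21.9 ± 1.75 FPKM (adjusted p value = 0.95), Rfc3 at 121 ± 18.6 and 115 ± 15.5 FPKM (0.80) and Rfc5 at 26.3 ± 3.08 and 35.6 ± 14.3 FPKM (0.43). Without WT replicate 3, where it was lowest, Rfc5 passed (log2 fold change -0.72, 0.014). The clamp Pcna was at 194.85, 178.48 and 205.76 FPKM in Bnc1tr/tr and 193.93, 214.18 and 227.91 FPKM in WT (adjusted p value = 0.56), with 23.3% of its words shared with the pseudogene Pcna-ps2.

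Both called RFC subunits rested on all libraries but WT replicate 3. The call of Rfc2 was lost without any 1 of the other 5 (0.055 to 0.11), as was that of Rfc4 (0.053 to 0.098). Rfc2 also failed at a pseudocount of 0.1 (0.06) and with no filter on low values (0.084). Antisense neighbours cover 15.1% of the exonic bases of Rfc2 (Lat2, 0.63 ± 0.223 FPKM in Bnc1tr/tr and 0.147 ± 0.0961 FPKM in WT) and 12.7% of those of Rfc4 (Eif4a2, 86.9 ± 5.92 and 73.6 ± 7.94 FPKM, adjusted p value = 0.30).

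No subunit of polymerases delta or epsilon, of the single-strand binding protein RPA or of Okazaki fragment maturation passed limma's test. Of all tested genes 31.8% passed. At an unadjusted p under 0.05 there were 2 delta and 1 RPA subunits, a threshold at which all tested genes were not counted. Pold2, the second delta subunit, was at 13.85, 9.85 and 12.08 FPKM in Bnc1tr/tr and 27.43, 21.45 and 12.1 FPKM in WT (log2 fold change -0.66 ± 0.28 SE, adjusted p value = 0.10). It passed without WT replicate 3 (-0.98, 0.0076) and under each scaling (0.018 to 0.031). Pold4, the smallest delta subunit, was at 8.23 ± 2.61 and 13.2 ± 4.27 FPKM (adjusted p value = 0.11), passed under each scaling (0.03 to 0.048) and is uncertain, as 24.6% of its exonic bases belong to an overlapping gene on the same strand. Pold3 was at 75.1 ± 6.77 and 70.3 ± 19.4 FPKM (0.70). Pole, Pole2, Pole3 and Pole4 had log2 fold changes of -0.17 to 0.25 and adjusted p values of 0.30 to 0.97.

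The RPA trimer protects single-stranded DNA at the fork. Rpa1, its large DNA-binding subunit, was at 26.24, 25.38 and 27.45 FPKM in Bnc1tr/tr and 47.26, 37.05 and 30.12 FPKM in WT, without overlap (log2 fold change -0.49 ± 0.19 SE, adjusted p value = 0.083). It passed without WT replicate 3 (0.023) and under each scaling (0.01 to 0.018). Rpa3 was at 515.62, 505.24 and 634.88 FPKM in Bnc1tr/tr and 350.82, 379.02 and 558.84 FPKM in WT (log2 fold change 0.38 ± 0.21 SE, adjusted p value = 0.21), and passed without WT replicate 3 (0.59, 0.035). Rpa2 did not pass (70.7 ± 8.8 and 86.1 ± 19.4 FPKM, 0.38). The ratio of Rpa3 to Rpa1 was 19.7, 19.9 and 23.1 in Bnc1tr/tr and 7.42, 10.2 and 18.6 in WT. This pair differs in opposite directions and neither gene was called, so the ratio adds no support for a difference. Fen1, the nuclease that trims Okazaki fragments, was at 19.1 ± 4.12 and 14.2 ± 4.29 FPKM (adjusted p value = 0.23), with 78.8% of its exonic bases antisense to Gm10143. Lig1, the ligase that seals them, was at 5.37 ± 0.789 and 5.32 ± 0.449 FPKM (0.98).

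The spread of the replication genes was uneven between groups. Their median coefficient of variation was 21.1% in WT and 12.1% in Bnc1tr/tr, beside 20.1% and 16.2% over all tested genes. WT replicate 3 held the lowest WT value for 31 of the 46 tested members (67.4%), against 49.5% of all tested genes. It was also the WT library with the largest estimated depth (21.2 M fragments). The part of this library in the uneven spread was not tested.

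Genes that work beside the core machinery were grouped into 7 lists. Of 121 tested genes 21 were higher and 9 lower (24.8% changed), with a median log2 fold change of 0.13. Of all tested genes 31.8% changed, 24.1% higher and 7.68% lower. No list was tested as a set. Origin firing and fork accessory genes had 3 changed of 25: Top1, the topoisomerase that relaxes DNA ahead of the fork, was higher (0.56 ± 0.17 SE, adjusted p value = 0.037), and the RNase H2 subunits Rnaseh2a (-0.84 ± 0.20 SE, 0.013) and Rnaseh2c (-0.53 ± 0.18 SE, 0.049), which remove RNA from DNA, were lower. Dbf4, the activator of Cdc7, was at 116 ± 22.1 and 102 ± 6.25 FPKM (0.50). Top1 lost its call under each of the 3 scalings (0.062 to 0.29) and without any library but WT replicate 3 (0.064 to 0.12), and Rnaseh2c lost its call whichever library was left out (0.059 to 0.16).

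Kinase, cyclin and licensing turnover genes had 2 changed of 18 (11.1%, against 31.8% of all tested genes). Both were inhibitors of cyclin-dependent kinases and both were higher. Cdkn1b was at 21.83, 21.63 and 20.12 FPKM in Bnc1tr/tr and 7.03, 6.51 and 10.52 FPKM in WT (log2 fold change 1.32 ± 0.20 SE, adjusted p value = 0.0011). Cdkn1a was at 4.13, 1.99 and 1.47 FPKM in Bnc1tr/tr and 0.67, 0.79 and 0.27 FPKM in WT (1.11 ± 0.28 SE, 0.015), and failed under quantile normalization (0.065). Ccne1, a cyclin of S phase entry, was at 17, 5.32 and 11.56 FPKM in Bnc1tr/tr and 6.74, 4.99 and 1.17 FPKM in WT and did not pass (0.084). It passed without Bnc1tr/tr replicate 2 (0.048) or WT replicate 1 (0.041), and in the fit that blocks on replicate number (0.036).

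The E2F and RB family had 5 higher and 1 lower of 16 tested (37.5% changed). Over all tested genes it was 31.8% (24.1% higher and 7.68% lower). Rbl1, a pocket protein that restrains E2F factors, was at 16.64, 22.14 and 20.1 FPKM in Bnc1tr/tr and 6.61, 6.38 and 8.64 FPKM in WT (log2 fold change 1.33 ± 0.19 SE, adjusted p value = 0.00077). E2f2 rose by 1.25 ± 0.18 SE on the log2 scale (0.001) and Tfdp1, the dimer partner of E2F proteins, by 0.93 ± 0.19 SE (0.0058), whereas Mybl2, a cell cycle transcription factor, fell (-0.59 ± 0.19 SE, 0.04) and E2f1 did not pass (2.73 ± 0.177 and 3.8 ± 0.161 FPKM, 0.10) except under each scaling (0.0044 to 0.032). Mybl2 failed without any library but WT replicate 3 (0.079 to 0.16). TTTNNCGC was in 17 of the 39 replication promoters (43.6%). Among called replication genes with a promoter in the table, it was in 2 of the 5 higher ones (Gins3 and Pola1) and 0 of the 3 lower ones. So few genes cannot separate these shares, and a link to E2F factors was not tested.

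Nucleotide supply genes had 2 higher and 2 lower of 20, where all tested genes had 24.1% higher and 7.68% lower (31.8% changed). Dctd, the deaminase of dCMP, was at 141.54, 122.7 and 124.44 FPKM in Bnc1tr/tr and 58.81, 59.99 and 47.96 FPKM in WT (log2 fold change 1.21 ± 0.17 SE, adjusted p value = 0.00076). Dck, the deoxycytidine kinase, rose as well (1.10 ± 0.22 SE, 0.0059), while Tk1, a thymidine kinase (-0.63 ± 0.20 SE, 0.042), and Samhd1, which degrades dNTPs (-0.63 ± 0.16 SE, 0.017), fell. The ribonucleotide reductase subunits Rrm1 (5.0 ± 0.825 and 6.34 ± 0.942 FPKM, 0.25) and Rrm2 (57.1 ± 11.5 and 44.8 ± 11.2 FPKM, 0.29) and thymidylate synthase Tyms (57.7 ± 8.6 and 73.7 ± 1.39 FPKM, 0.14) did not pass, although Rrm1 passed under upper-quartile (0.037) and quantile scaling (0.014) and Tyms under upper-quartile (0.029) and median-ratio scaling (0.049). Tk1 failed without any library but WT replicate 3 (0.088 to 0.15), and Samhd1 without replicate 1 or 2 of either group (0.052 to 0.058).

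Replication-coupled chromatin assembly genes had 1 higher and 1 lower of 15 (13.3% changed, against 31.8% of all tested genes). These were Npat (0.71 ± 0.17 SE, adjusted p value = 0.012), an activator of histone genes, and Tlk1 (-0.69 ± 0.22 SE, 0.044), a kinase of histone chaperones. The call of Tlk1 was lost whichever library was left out (0.05 to 0.11). Translesion synthesis genes had 5 higher and 1 lower of 14 (42.9% changed), where all tested genes had 24.1% higher and 7.68% lower. Hltf, a fork remodeller, was at 24.69, 30.28 and 29.76 FPKM in Bnc1tr/tr and 8.17, 11.62 and 9.71 FPKM in WT (log2 fold change 1.44 ± 0.18 SE, 0.00046). The polymerases Poln (1.23 ± 0.23 SE, 0.0037) and Polk (0.74 ± 0.18 SE, 0.015) were higher and Primpol, a repriming enzyme, lower (-0.68 ± 0.21 SE, 0.036). Npat failed under quantile normalization (0.16), Polk under quantile (0.19) or upper-quartile scaling (0.06) and without Bnc1tr/tr replicate 1 (0.056) or WT replicate 2 (0.07), and Primpol without any library but WT replicate 3 (0.082 to 0.11).

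Mitochondrial DNA replication genes had 5 higher and 2 lower of 13 (53.8% changed). Over all tested genes it was 31.8% (24.1% higher and 7.68% lower). Twnk, the helicase, was at 1.51, 3.22 and 2.49 FPKM in Bnc1tr/tr and 9.96, 10.08 and 9.78 FPKM in WT (log2 fold change -1.72 ± 0.21 SE, adjusted p value = 0.00035). Polrmt, the mitochondrial RNA polymerase, was at 4.26, 5.19 and 2.3 FPKM in Bnc1tr/tr and 13.97, 9.67 and 8.29 FPKM in WT (-1.26 ± 0.27 SE, 0.0077). The accessory subunit Polg2 (1.12 ± 0.18 SE, 0.0019), the nuclease Exog (1.16 ± 0.18 SE, 0.0014) and the single-strand binding protein Ssbp1 (0.69 ± 0.21 SE, 0.032) were higher. Ssbp1 failed under upper-quartile (0.20) and median-ratio scaling (0.13) and without Bnc1tr/tr replicate 2 or 3 or WT replicate 1 or 2 (0.071 to 0.12).

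**Figure D5:**
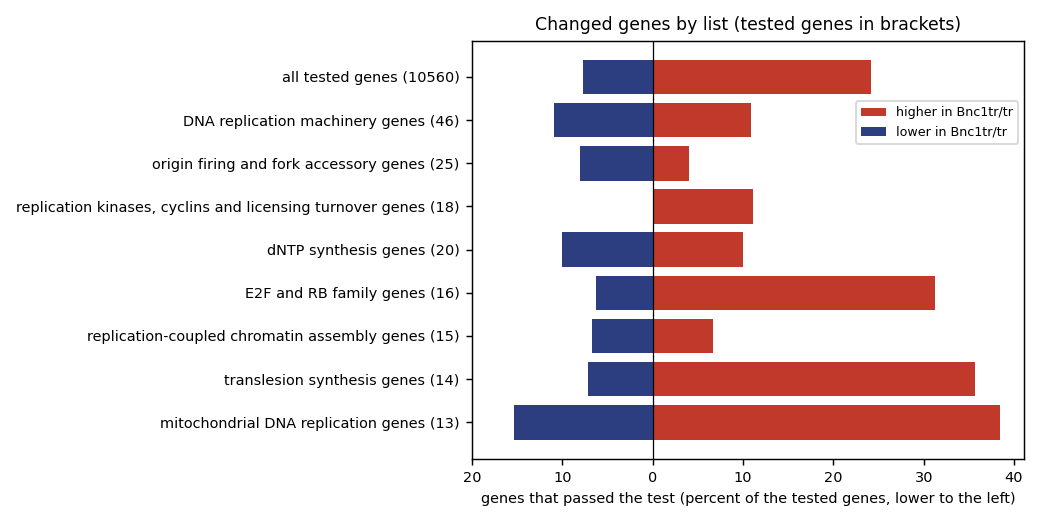
Percent of tested genes called higher (red, to the right) and lower (blue, to the left) in Bnc1tr/tr for all tested genes, the replication machinery and the 7 related lists, with the number tested in brackets. All tested genes show 24.1% higher and 7.68% lower, and upper-quartile scaling brings the higher share of all calls from 75.8% to 50.8%.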

How the data were processed

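The authors deposited 1 table per library with FPKM for 17577 genes, rounded to 2 decimals and without read counts. The submitters' processing notes name HISAT2 2.0.4, Bowtie2 2.2.5, RSEM 1.2.12 and GRCm38.p6. Which tool made which value, the annotation and any gene filter are not given in the sources used here. Because FPKM values share the library's fragments as their scale, abundant transcripts move every other value, and amplified cDNA without molecular identifiers limits what fragment numbers mean. The depth estimate and the floor of 3 fragments cover counting error only.

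Genotypes came from the labels. The 3 libraries of each group entered limma 3.58.1 (R 4.3.3) as log2 of FPKM plus a pseudocount of 1. Genes averaging under 1 FPKM were left out, and p values were adjusted over all 10560 tested genes (Benjamini-Hochberg). Genes were called where the adjusted p value was under 0.05 and the log2 fold change exceeded 0.5 in either direction. On simulated data the fit recovered 43 of 100 genes changed by 1 on the log2 scale and 95 of 100 changed by 2, with 7 false calls. A gene that did not pass can therefore still differ. Far fewer genes changed in that simulation than were called here. Depth was estimated from the spacing of low FPKM values multiplied by transcript length. Gene coordinates are those of RefSeq on GRCm38.p6, and transcript lengths, exon overlaps and shared 31-base words came from GENCODE M21, with the longest coding transcript taken.

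All genes found by the symbol rule are named. From each related list up to 3 changed genes with the largest increase and up to 3 with the largest decrease are named, together with Cdkn1b, Ccne1, Dbf4, Rrm1, Rrm2, Tyms and E2f1. Other neighbouring genes are named for their overlap only. Members, complexes, related lists and marker lists were chosen with earlier results of these data known. Alternatives were a pseudocount of 0.1, other filters, 3 scalings, the replicate number as a block, trend and robust variances, and omission of each library. Figures were drawn with matplotlib 3.10.9.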

Additional observations from a re-analysis of the deposited data

How the results depend on the processing

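Pola2, Gins2 and Mcm9 were called in all alternatives except the joint omission of Bnc1tr/tr replicates 1 and 2, which was chosen after seeing the data (adjusted p values of 0.13, 0.14 and 0.12). Of 688 alternative values for the replication genes 561 kept direction and side of the threshold, 56 lost a call, 29 gained one and 42 changed sign. For the named related genes, of 455 values 363 kept both, 80 lost a call, 10 gained one and 2 changed sign. Depth and the number of oocytes limit what could be seen for Pold1.

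The 10 calls among the replication genes (5 higher, 5 lower) became 5 without a filter on low values, where 1 was higher. With a pseudocount of 0.1 the higher calls were 3. Upper-quartile scaling gave 1 higher and 13 lower, median-ratio scaling 16 in all with 12 lower, and quantile normalization 2 higher and 12 lower. Over all tested genes 3358 calls (2547 higher, 811 lower) became 2046 (1413 higher) at a minimum mean of 5 FPKM, and the lower ones 1794, 1394 and 1811 under the same 3 scalings, with 1670 higher under quantile normalization. Leaving out both Bnc1tr/tr libraries with immune transcripts gave 0 replication calls (0 higher, 0 lower), 7 in the related lists (30 with all libraries) and 863 over all tested genes (720 higher, 143 lower). That fit has 1 Bnc1tr/tr library.

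Leaving out single libraries gave 3 to 13 replication calls, 1 to 5 higher and 2 to 10 lower. The fewest calls came without Bnc1tr/tr replicate 1 or WT replicate 2 and the most without WT replicate 3, while higher calls were fewest without Bnc1tr/tr replicate 1 or 3 or WT replicate 2 and most without WT replicate 1. The related lists ranged from 16 to 26 calls, and all tested genes from 2390 to 3597, of which 1867 to 2560 were higher and 416 to 1037 lower. Apart from the number of samples, the cause of these shifts was not tested.

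With the replicate number as a block, 10 replication genes (5 higher, 5 lower), 36 related genes and 3733 of all tested genes were called. Same-numbered libraries correlated in their deviations from the group means at 0.278, -0.0344 and 0.124, and not every library correlated best with its own number, so the numbers were not taken as pairs.

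Signs changed only in replication genes that were not called, and in Dbf4. Under upper-quartile scaling the log2 fold changes were -0.023 for Orc1, -0.058 for Orc6, -0.17 for Gmnn, -0.026 for Mcm5, -0.14 for Pold3, -0.17 for Pole, -0.24 for Pole3, -0.029 for Pole4, -0.25 for Rfc1, -0.20 for Rfc3, -0.23 for Lig1 and -0.095 for Dbf4. Under median-ratio scaling they were -0.075 for Gmnn, -0.053 for Pold3, -0.11 for Pole, -0.15 for Pole3, -0.16 for Rfc1, -0.11 for Rfc3, -0.15 for Lig1 and -0.0059 for Dbf4. Quantile normalization gave 0.053 for Orc4, -0.43 for Pole, -0.045 for Pole3, -0.19 for Rfc1 and -0.36 for Lig1. Without both libraries with immune transcripts the values were 0.16 for Orc4, -0.078 for Pole, 0.15 for Pole2, -0.046 for Rfc1 and -0.018 for Lig1. Single omissions changed the sign of 8 genes, whose values then ranged from -0.096 to 0.13 for Orc4, -0.01 to 0.23 for Gmnn, -0.11 to 0.30 for Pold3, -0.039 to 0.054 for Pole, -0.085 to 0.19 for Pole3, -0.049 to 0.051 for Rfc1, -0.048 to 0.16 for Rfc3 and -0.087 to 0.088 for Lig1.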
